A study of Mus musculus with 16 samples.

Results

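Haematopoietic stem cells (HSCs) are isolated and recognised by proteins on their surface, and 9 genes that encode such proteins were followed here: Kit, Ly6a, Slamf1, Cd48, Procr, Esam, Tek, Cd34 and Flt3. They were chosen by name, with no threshold on their values but with earlier results of these data known, from 46078 genes counted in the RNA-Seq experiment. Each of the 15 libraries was made from a pool of 30 live cells sorted without lineage markers, with Sca-1 and c-Kit, without CD48 and with CD150. The mice were C57/Bl6, untreated, and either WT or Gfra2-/-, a constitutive loss of the neurturin receptor GFRα2 that leaves the mice short of cholinergic fibres. Age- and sex-matched animals were used, and the ages are not given in the sources used here. For each genotype, cells from long bones were divided into an endosteal (bone) and a central (marrow) fraction. There were 4 WT endosteal, 4 WT central, 4 Gfra2-/- endosteal and 3 Gfra2-/- central libraries, and the comparisons address whether HSCs of the 2 BM compartments and the 2 genotypes differ. The columns of the count table carry library codes, which the study's library lists tie to a group but to no replicate number, so the libraries of each group are lettered A to D here in column order. The study calls its replicates biological, but whether each pool came from a separate mouse is not stated in the sources used here, and the p-values measure the spread between pools.

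As background, Kit is the receptor of stem cell factor and Flt3 the receptor of FLT3 ligand. Both are tyrosine kinases of one family, and Flt3 protein (CD135) appears on multipotent progenitors as they lose long-term repopulating capacity. Slamf1 (CD150) and Cd48 are members of the SLAM family of immune-cell adhesion receptors, and CD150 without CD48 enriches for HSCs. Ly6a encodes Sca-1, a small protein anchored in the membrane by a lipid, and Procr encodes the endothelial protein C receptor (EPCR, CD201), which marks quiescent HSCs. Tek encodes Tie2, the receptor of angiopoietins. Esam is an adhesion molecule shared by HSCs and endothelium, and Cd34 encodes a sialomucin that is low on adult mouse long-term HSCs and high on progenitors. The gate read protein of Kit, Ly6a, Slamf1 and Cd48, so the cells were selected on these 4 proteins and not on the other 5.

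The libraries held between 826487 and 18550008 gene counts, and the WT central libraries were the shallowest, with 826487 to 3367289. WT central A and C, at 1230252 and 826487, fell below 1500000 gene counts. That limit was modelled on the study's cut-off for uniquely mappable reads, and both libraries were kept in the main fits. Spike-in RNA made up less than 0.5% of the counts in 4 libraries, 1 in each group (WT endosteal D, WT central D, Gfra2-/- endosteal D and Gfra2-/- central C). Gfra2 itself gave 0 to 4 counts in the WT libraries and 2, 47, 1 and 9 counts in the Gfra2-/- endosteal libraries, against 0, 1 and 0 in the Gfra2-/- central libraries. The 47 and 9 counts exceed those of every WT library as raw counts only. In CPM they were 2.37 and 0.789, below the 5.36 CPM of the 4 counts in WT central C, the shallowest library. Which exons the counts came from was not examined. With so few counts in WT the gene is a weak check of the label, so groups below are named as labelled. Among HSC genes that were not in the gate, Hlf was at 292 to 624 CPM and Mecom at 75.3 to 435 CPM over all libraries. Fgd5, another such gene, was at 24.3 to 117 CPM. Hoxb5 was lower, at 0.731 to 29.3 CPM, with 2 counts in WT central C and 3 in WT endosteal A. Some libraries held genes of other cell types, and 4 had over 200 CPM of B cell, neutrophil or Ly6c2 transcripts. The B cell genes Cd79a and Cd79b reached 322 and 613 CPM in Gfra2-/- endosteal D, the neutrophil genes S100a8 and Ngp reached 864 and 389 CPM in WT central D, and Ly6c2 reached 358 CPM in WT central C and 208 CPM in Gfra2-/- central C. In WT central D the neutrophil genes S100a9 and Ltf were also high (796 and 504 CPM), but Elane, Mpo and Ly6g were at 0 and Itgam at 1.01 CPM. In the other 11 libraries Ly6c2 and S100a8 were at most 4.66 CPM. Not all such genes were low there, since Cd79b reached 113 CPM and the myeloid gene Lyz2 was at 312 to 761 CPM. CPM are counts scaled to a common library total with TMM normalization. In pools of cells, fewer cells of a type and less RNA per cell cannot be told apart.

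To compare levels between genes, CPM were divided by the kilobases of exon in each gene. On this scale Ly6a was highest, with a median of 191 CPM per kb over the 15 libraries. Kit followed at 77.1, Esam at 76.8, Procr at 45.3 and Cd34 at 45.0 CPM per kb. Tek (16.1 CPM per kb) and Slamf1 (5.64) were lower, and Cd48 (3.69) and Flt3 (1.80) lowest. Ly6a exceeded Kit in 14 of 15 libraries, and Cd34 exceeded Tek in 15 of 15. Between these steps the neighbours in the order did not differ beyond their spread: Kit exceeded Esam in 11 of 15 libraries, Esam exceeded Procr in 9 of 15, Procr exceeded Cd34 in 9 of 15, Tek exceeded Slamf1 in 10 of 15 and Cd48 exceeded Flt3 in 8 of 15. The middle of the order depended on the length used. With the length of the longest protein-coding transcript, Cd34 rose to 128 CPM per kb, beside Kit at 131 and Esam at 118, and Slamf1 rose to 12.9, beside Tek at 16.3. Ly6a stayed first at 240.4, and the 2 lowest genes stayed Cd48 and Flt3. For Ly6a, 19.0% of 50-base stretches of its transcripts also occur in Ly6c1, Ly6c2, Ly6i or I830127L07Rik, and the alignment dropped reads with several positions, so its level is uncertain.

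**Figure D1:**
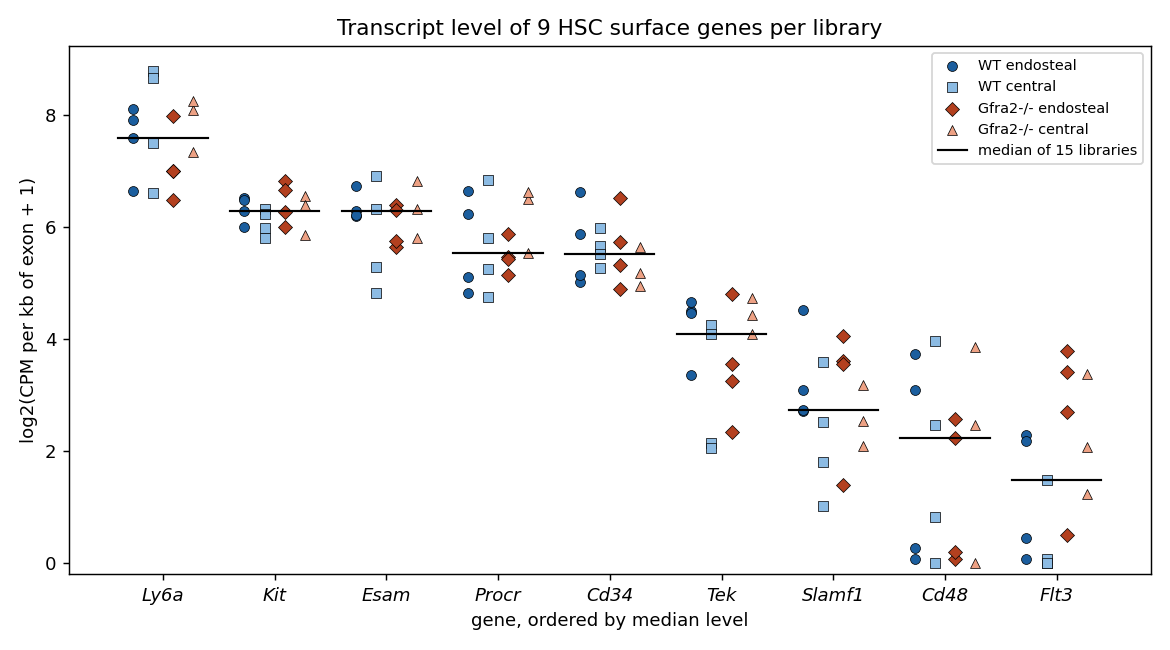
Levels of the 9 genes in each of the 15 libraries, as log2(CPM per kb of exon + 1), with genes ordered by their median (black line). Ly6a is highest, 4 genes from Kit to Cd34 overlap, and Cd48 and Flt3 reach from 0 to the level of Slamf1.

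Kit (ENSMUSG00000005672, chr5:75574916-75656722, plus strand, GRCm38) was the most even of the 9 genes. It ranged over 491 to 993 CPM, a 2.02-fold span. The group means were 712 ± 113 CPM in WT endosteal (SD, n = 4), 602 ± 97.8 in WT central (n = 4), 783 ± 198 in Gfra2-/- endosteal (n = 4) and 691 ± 166 in Gfra2-/- central libraries (n = 3). Its within-group SD was 0.31 on the log2(CPM + 1) scale. Spread between libraries falls with level in these pools, and the median within-group SD of all genes in the same 1-unit bin of mean log2 level was 0.36, with 32.3% of the 62 genes in the bin below Kit. Procr (0.73 against 0.74), Tek (0.97 against 0.98) and Esam (0.60 against 0.55) were also near the median of their level. Slamf1 had a larger SD (1.17) than 71.6% of the genes in its bin. Ly6a and Cd34 were more variable than most genes at their level, with 82.9% and 89.3% of the genes in their bins below them. Cd48 (1.84 against 1.41) and Flt3 (1.87 against 1.53) had the highest SDs of the 9.

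**Figure D2:**
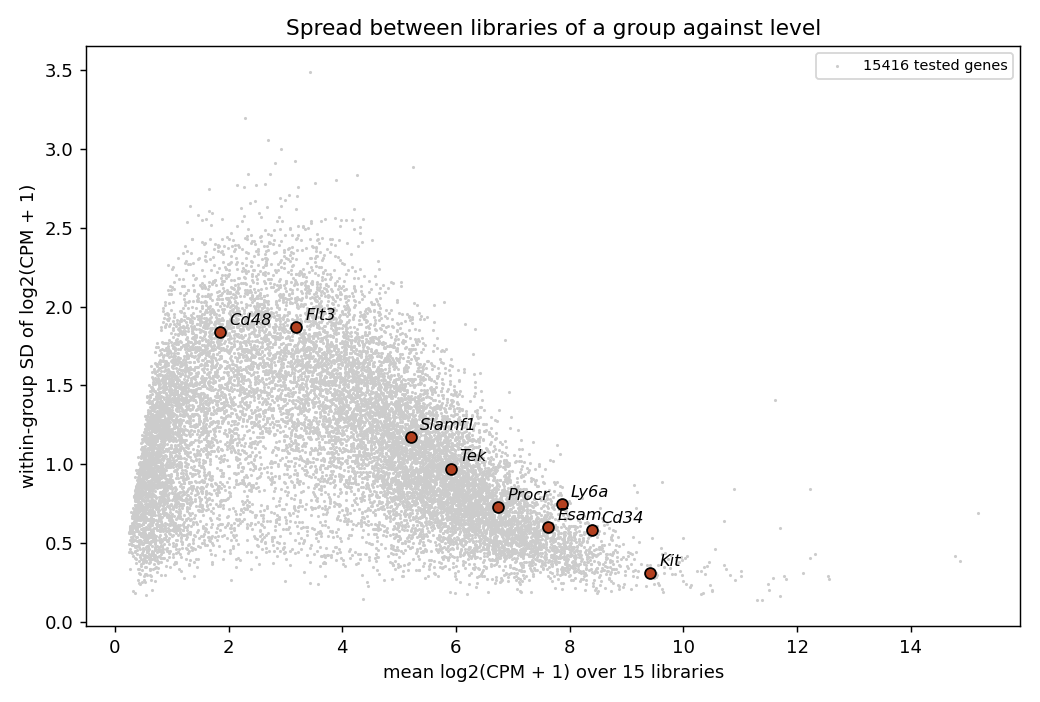
Within-group SD of log2(CPM + 1) against the mean log2(CPM + 1) over 15 libraries, for the 15416 genes of the fit over all groups (grey) and the 9 surface genes (red). Kit has the lowest SD of the 9 (0.31) and sits among grey points of the same level, and Flt3 has the highest (1.87).

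Ly6a (ENSMUSG00000075602, chr15:74994877-74998031, minus strand) spanned 106 to 533 CPM. The group means were 242 ± 91.4 CPM in WT endosteal, 338 ± 202 in WT central, 179 ± 85.6 in Gfra2-/- endosteal and 296 ± 89.5 in Gfra2-/- central libraries (SD, n = 4, 4, 4 and 3). Values were lower on the endosteal side in both genotypes, and the groups overlapped. The log2 fold change, endosteal against central, was -0.50 ± 0.47 (SE) in WT and -0.73 ± 0.40 in Gfra2-/- libraries. Neither passed (edgeR adjusted p = 0.825 and 0.999). A fit over all 15 libraries, with genotype and compartment as additive terms, was added after these values were seen and gave -0.60 ± 0.33 (adjusted p = 0.637). Without Gfra2-/- endosteal D, the library with B cell genes, Ly6a in the other 3 Gfra2-/- endosteal libraries was 106 to 153 CPM, against 195, 329 and 365 CPM in the Gfra2-/- central libraries, and the log2 fold change was -1.12, which did not pass either. The part of the B cell genes in that result was not tested.

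Slamf1 (ENSMUSG00000015316, chr1:171767127-171801184, plus strand) and Cd48 (ENSMUSG00000015355, chr1:171682009-171705258, plus strand) lie in the same gene cluster, 61.9 kb apart, and the gate asks for the protein of the first and not of the second. Slamf1 was above 3 counts in all 15 libraries. It read 34.1, 46.0, 34.7 and 134 CPM in WT endosteal A to D and 6.34, 15.2, 68.4 and 29 CPM in WT central A to D. It read 68.5, 66.1, 96.0 and 9.99 CPM in Gfra2-/- endosteal A to D and 20.0, 29.7 and 49.6 CPM in Gfra2-/- central A to C. WT endosteal D was the highest library and WT central A, with 7 counts, the lowest, and Gfra2-/- endosteal D lay far below the other libraries of its group. Endosteal libraries were on average higher than central ones in both genotypes, by a log2 fold change of 1.05 ± 0.83 (SE) in WT and 0.86 ± 0.73 in Gfra2-/- libraries, without passing (edgeR adjusted p = 0.786 and 0.999), and with spike-in size factors the Gfra2-/- estimate was -0.17 relative to the median gene. The additive fit gave 0.98 ± 0.55 (adjusted p = 0.653), and the exact permutation of libraries within genotypes gave p = 0.150. Without the 2 libraries with the highest B cell and neutrophil genes (Gfra2-/- endosteal D and WT central D) the additive estimate was 1.14 (edgeR adjusted p = 0.632).

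Cd48 transcripts were not evenly low. Counts were 1, 1, 161 and 109 in WT endosteal A to D, 1, 0, 13 and 16 in WT central A to D, 1, 87, 51 and 2 in Gfra2-/- endosteal A to D and 0, 57 and 125 in Gfra2-/- central A to C. Each group thus had libraries with at most 2 counts beside libraries with 13 or more, and 8 of the 15 libraries had over 3 counts. In WT central B and Gfra2-/- central A, where Cd48 gave 0 counts, 3 counts would correspond to 0.933 and 0.197 CPM. The highest Cd48 values were 17.4 CPM in WT central C, 16.1 CPM in Gfra2-/- central C and 14.6 CPM in WT endosteal C. In those 3 libraries Cd48 exceeded Slamf1 per kb of exon, at 14.7 against 11.1, 13.5 against 8.05 and 12.3 against 5.64 CPM per kb. With the longest coding transcript as length, Slamf1 was the higher in all 15 libraries. The first 2 of these libraries are also those with Ly6c2, and the part of those cells in Cd48 was not tested. WT endosteal C had Ly6c2 at 0.273 CPM. No comparison of Cd48 passed, with standard errors of the log2 fold change between 1.61 and 1.95.

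Flt3 (ENSMUSG00000042817, chr5:147330741-147400489, minus strand) had the largest estimates of the 9 genes in both comparisons of genotype, and none passed. Counts were 0, 1, 0 and 33 in WT central A to D and 128, 210 and 452 in Gfra2-/- central A to C. They were 98, 5, 239 and 27 in WT endosteal A to D and 884, 670, 683 and 29 in Gfra2-/- endosteal A to D. Every Gfra2-/- library had at least 29 counts, while 3 of the 4 WT central libraries had at most 1. In CPM, WT central read 0, 0.311, 0 and 11.1 and Gfra2-/- central 8.39, 19.9 and 58.0, and WT endosteal read 23.9, 0.333, 21.7 and 2.21 and Gfra2-/- endosteal 59.8, 33.8, 79.0 and 2.54. The groups overlapped in both compartments, through WT central D above and Gfra2-/- endosteal D below. At the median of the Gfra2-/- central libraries (19.9 CPM), WT central A to D would have given 21.9, 63.9, 14.8 and 58.9 counts at their depth. For the 2 libraries at 0, 3 counts correspond to 2.72 and 4.02 CPM, and these limits cover counting error only. Those 2 libraries, WT central A and C, are the ones below 1500000 gene counts. WT endosteal B, at 14003634 gene counts, had only 5.

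The log2 fold change of Flt3, Gfra2-/- against WT, was 3.18 ± 1.58 (SE; edgeR adjusted p = 0.607) in central and 1.87 ± 1.27 (edgeR adjusted p = 0.828) in endosteal BM, so neither passed. Over both compartments in one additive fit it was 2.48 ± 1.03 (edgeR adjusted p = 0.330; DESeq2 adjusted p = 0.119). The exact two-sided permutation of libraries within compartments gave p = 0.0163, the only one of 18 such tests, 9 genes by 2 factors, under 0.05. These tests were added after the values were seen, and 11.9% of all genes had an unadjusted edgeR p under 0.05 in the same fit. Flt3 was 1 such gene among the 9, so the members did not stand apart from that share. The central estimate depended on WT central D, the library with neutrophil genes: without it the remaining WT central libraries had 0, 1 and 0 counts and the fitted log2 fold change of 7.22 (edgeR adjusted p = 0.284) is no measure of size. Without Gfra2-/- central C it was 2.15 (edgeR adjusted p = 0.879). Among libraries with at least 0.5% spike-in the mean difference on the log2(CPM + 1) scale was 3.68 in central (2 against 3 libraries) and 2.60 in endosteal BM (3 against 3). Between the single low spike-in libraries of each group it was 2.28 and 0.14. Between endosteal and central BM, Flt3 was tested in Gfra2-/- libraries only (log2 fold change 0.60 ± 1.04 SE, edgeR adjusted p = 0.999), since it did not pass the filter on low counts in WT.

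Procr (ENSMUSG00000027611, chr2:155751117-155755471, plus strand) had the smallest p of the 9 genes in the pairwise fits. It read 87.9, 117, 69.9 and 85.2 CPM in Gfra2-/- endosteal A to D and 181, 197 and 92 CPM in Gfra2-/- central A to C. The highest endosteal library, B, lay above the lowest central library, C, so the groups overlapped. The log2 fold change was -0.80 ± 0.35 (SE; unadjusted p = 0.0493, edgeR adjusted p = 0.999; DESeq2 adjusted p = 0.394; exact permutation p = 0.114). It was negative under all 17 alternatives tried, from -1.07 to -0.55. In WT, Procr was 119 ± 69.7 CPM in endosteal and 117 ± 78.5 CPM in central libraries (n = 4 each, SD), and the log2 fold change was 0.00 ± 0.57 (SE). The difference between the 2 compartment effects did not pass (interaction -0.82 ± 0.72, edgeR adjusted p = 0.862).

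Tek (ENSMUSG00000006386, chr4:94739289-94874976, plus strand) had compartment estimates of opposite sign in the 2 genotypes, and neither passed. WT endosteal A to D read 102, 43.4, 115 and 99.8 CPM and WT central A to D 85.1, 75.2, 16.1 and 14.8 CPM. Gfra2-/- endosteal A to D read 127, 40.4, 50.7 and 19.2 CPM and Gfra2-/- central A to C 96.5, 75.9 and 121 CPM. WT central C and D and Gfra2-/- endosteal D held the 3 lowest values, and these are 3 of the 4 libraries with over 200 CPM of B cell, neutrophil or Ly6c2 transcripts. The remaining such library, Gfra2-/- central C, went the other way, with the highest Tek value of its group (121 CPM). The log2 fold change, endosteal against central, was 0.89 ± 0.68 (SE) in WT and -0.72 ± 0.59 in Gfra2-/- libraries, and 1.01 ± 0.73 for Gfra2-/- against WT in central BM. The interaction of genotype and compartment was -1.63 ± 0.94 (SE; edgeR adjusted p = 0.762), and the directions thus were not shown to differ. Without those 4 libraries it was -0.41 (edgeR adjusted p = 0.962). The part of the other cell types in the Tek values was not tested. Of the genes for the partners of Tie2, Angpt1 was at 515 to 1000.5 CPM and the related receptor Tie1 at 110.0 to 344 CPM, present in all 15 libraries. Both were picked as partners of Tek after their values were seen.

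Esam (ENSMUSG00000001946, chr9:37528078-37538319, plus strand) averaged 235 ± 45.3 CPM in WT endosteal, 189 ± 121 in WT central, 188 ± 49.6 in Gfra2-/- endosteal and 235 ± 82.4 in Gfra2-/- central libraries (SD, n = 4, 4, 4 and 3). WT central libraries were the most spread, from 77.9 to 343 CPM. Cd34 (ENSMUSG00000016494, chr1:194938819-194961279, plus strand), which the gate did not use, ranged over 210.4 to 714 CPM and was present in every library. Its means were 404 ± 224, 355 ± 76.7, 384 ± 198 and 276 ± 71.8 CPM in the same order. The 2 highest libraries, WT endosteal A at 714 CPM and Gfra2-/- endosteal D at 663 CPM, were both endosteal, and the rest lay at or below 456 CPM. Exons of Cd34 share 148 bases with the antisense gene Gm16897, and the counting ignored strand, so reads of the 2 genes there cannot be told apart. Since Tek, Esam, Procr and Cd34 are also endothelial genes, the endothelial markers were read beside them. Cdh5 was at 0 in all 15 libraries, Flt1 at 0 in 14, and Kdr at 0 in all Gfra2-/- endosteal libraries and at 128 CPM in WT central A, its highest. In Gfra2-/- central A to C Kdr was 3.48, 63.9 and 33.3 CPM (edgeR adjusted p = 0.805 against the endosteal libraries). It passed the low-count filter there through the central libraries alone. In that comparison Procr, Tek and Esam had negative estimates and Cd34 a positive one (0.48). Gfra2-/- central A, with the lowest Kdr of its group, had Procr at 181 and Tek at 96.5 CPM. Emcn was present in all 15 libraries, at 11.3 to 301 CPM. The part of endothelial cells in the values of Procr, Tek, Esam and Cd34 was not tested. The summed level of the 8 endothelial genes ranged over 106 to 158 CPM in WT endosteal, 148 to 396 in WT central, 64.5 to 156 in Gfra2-/- endosteal and 74.0 to 325 CPM in Gfra2-/- central libraries.

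**Figure D3:**
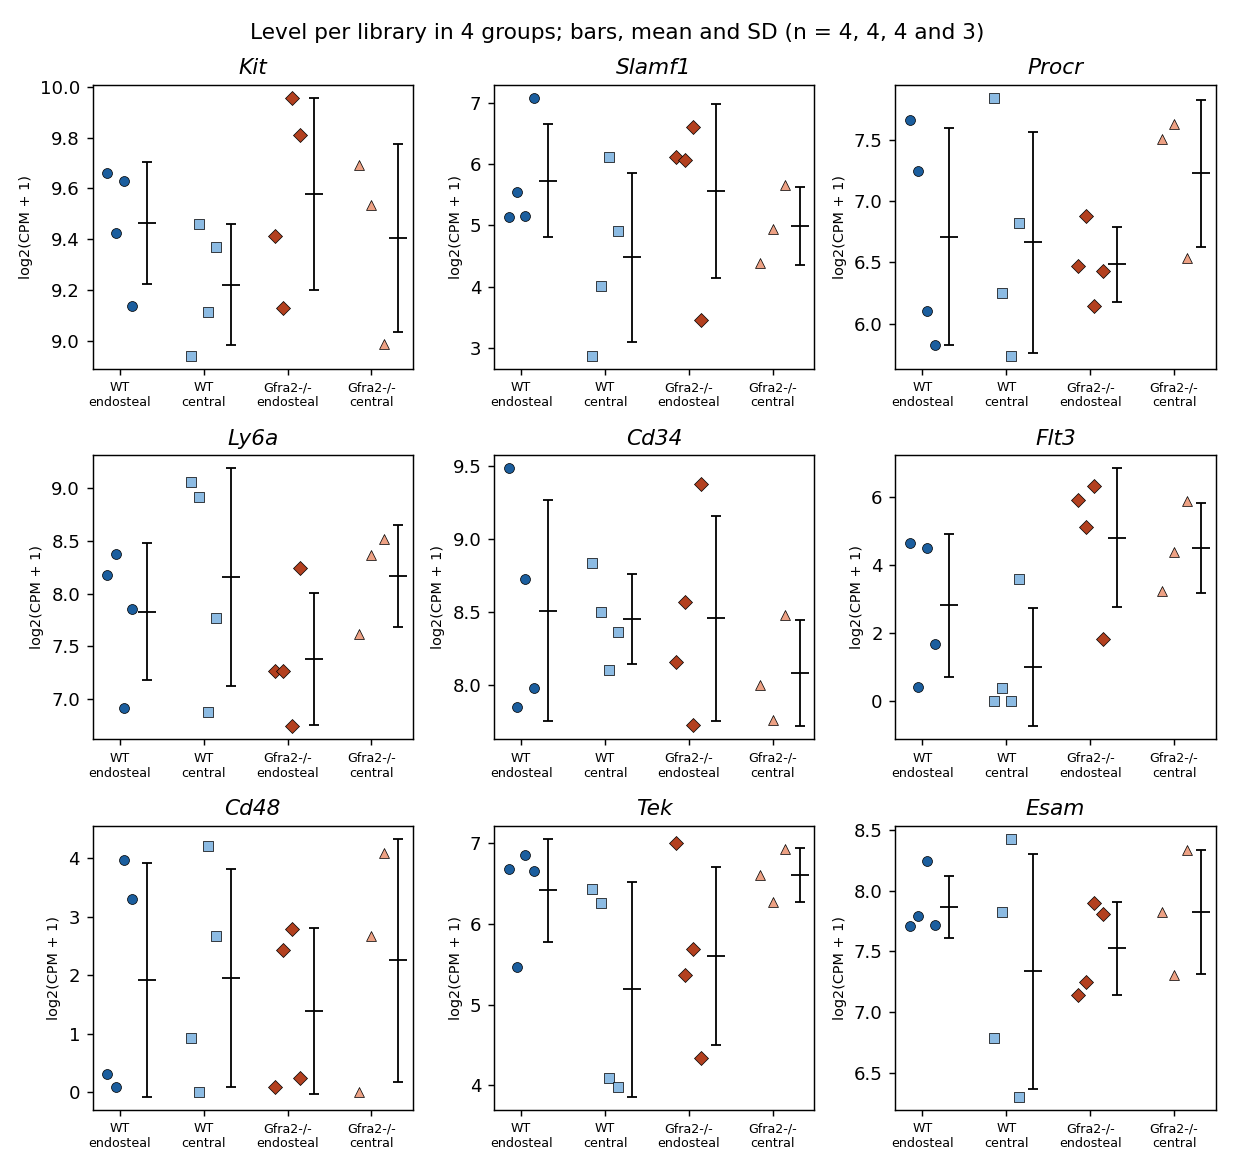
Log2(CPM + 1) of each gene in the libraries of the 4 groups (points), with the mean and SD beside them (n = 4, 4, 4 and 3). Vertical axes differ between panels. The groups overlap for all 9 genes in each pairwise comparison, and Flt3 is at 0 in 2 WT central libraries.

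In WT, endosteal against central BM, 0 of the 8 genes tested passed an edgeR FDR of 0.1, beside 0% of the 11181 genes tested, and 0 had an unadjusted p under 0.05, beside 7.89%. DESeq2 called 0 of the 9, beside 4.52% of all genes, and 0 had an unadjusted p under 0.05 by DESeq2, beside 10.1%. Their median log2 fold change was 0.20, beside 0.03 over all genes, and 7 of the 8 estimates were positive, of which those of Kit, Procr and Cd34 turned negative with spike-in size factors. In Gfra2-/- libraries, endosteal against central, 0 of 9 passed by edgeR, beside 0% of 13860 genes, and 1, Procr, had an unadjusted p under 0.05, beside 4.79%. DESeq2 called 0, beside 2.75%, and 1, again Procr, had an unadjusted p under 0.05, beside 7.21%. The median of the 9 was -0.32, beside 0.03. The median was negative through Cd48, Procr, Ly6a, Tek and Esam, while Slamf1, Flt3, Cd34 and Kit had positive estimates, the first 2 of which turned negative with spike-in size factors.

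In central BM, Gfra2-/- against WT, 0 of 9 passed by edgeR, beside 0.051% of 11772 genes (6 genes), and 0 had an unadjusted p under 0.05, beside 8.73%. DESeq2 called 0, beside 5.33%, and 1, Flt3, had an unadjusted p under 0.05, beside 10.6%. The median was 0.30, beside 0.03, and Ly6a and Cd34 had the 2 negative estimates. With spike-in size factors Ly6a turned positive and Kit negative. In endosteal BM, 0 of 9 passed by edgeR, beside 0% of 12970 genes, and 0 had an unadjusted p under 0.05, beside 6.69%. By DESeq2 0 were called, beside 3.69%, and 0 had an unadjusted p under 0.05, beside 9.44%. The median was -0.31, beside 0.03, and only Flt3 and Kit had positive estimates, to which Cd34, Procr and Ly6a were added with spike-in size factors. These 4 comparisons share groups, so their estimates are not independent of each other. For the interaction, 0 of 9 passed, beside 0% of 15416 genes, and 0 had an unadjusted p under 0.05, beside 6.97%. By DESeq2 these counts were 0, beside 1.62%, and 0, beside 6.31%. In the additive fit 0 of 9 passed for genotype, beside 0.804% of genes, and 0 for compartment, beside 0.0259%, where 0 also had an unadjusted p under 0.05, beside 8.71%. DESeq2 called 0 of 9 in both, beside 8.39% and 3.59%. At an unadjusted DESeq2 p under 0.05 there was 1 gene for genotype, beside 12.2%, and 0 for compartment, beside 9.81%.

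**Figure D4:**
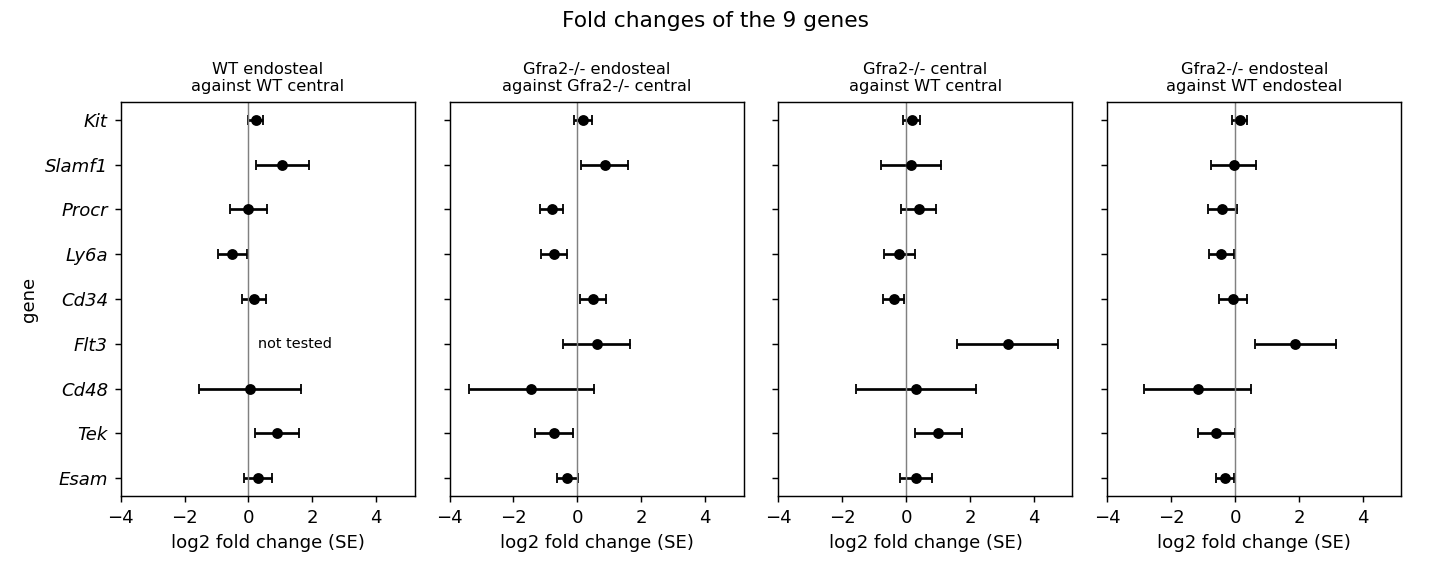
EdgeR log2 fold changes of the 9 genes in the 4 pairwise comparisons (points), with bars of 1 SE. Kit is the most precisely estimated, Cd48 and Flt3 the least, and no gene passed an FDR of 0.1.

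Single-gene exact permutation tests of log2(CPM + 1) gave no two-sided p under 0.05 among 36 (9 genes, 4 comparisons), and the smallest was 0.114. With 4 against 4 libraries the smallest p possible is 0.0286, and with 4 against 3 it is 0.0571, so the comparisons with Gfra2-/- central libraries could not reach 0.05. In no comparison did the libraries of the 2 groups separate without overlap for any of the 9 genes, beside 6.36% of all tested genes in WT and 7.34% in Gfra2-/- for compartment, and 12.4% in central and 6.24% in endosteal BM for genotype.

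Genes around these receptors were read from 5 lists. Of 22 ligands, partners and signalling proteins, 21 were matched in the table and 15 or 16 tested per comparison. None passed an FDR of 0.1 in any of the 4. At an unadjusted p under 0.05, 2 of 16 were lower in WT endosteal than central libraries, beside 7.89% of all genes in either direction, and 2 of 16 were higher and 1 lower in Gfra2-/- endosteal than central, beside 4.79%. Between genotypes, 1 of 15 was lower in Gfra2-/- central libraries, beside 8.73%, and 2 of 16 were higher in Gfra2-/- endosteal libraries, beside 6.69%. The smallest p was that of Grb2, an adaptor downstream of Kit and Flt3, at 94.7 ± 11.8 CPM in Gfra2-/- central libraries (SD, n = 3) and 256 ± 69.7 CPM in WT central libraries (n = 4; edgeR log2 fold change -1.46 ± 0.39 SE, adjusted p = 0.318). Lyn, a Src-family kinase that associates with Kit, was next at 38.7 ± 24.6 CPM in WT endosteal libraries (SD, n = 4) and 150.3 ± 92.6 CPM in WT central libraries (n = 4; edgeR log2 fold change -1.98 ± 0.69 SE, adjusted p = 0.508). The ligand gene Kitl was at 0 to 8.45 CPM.

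Of the 7 other SLAM family genes, 2 or 3 were tested and 0 had an unadjusted p under 0.05. Cd244a, the receptor of CD48, had the smallest p, at 17.3 ± 14.5 CPM in WT endosteal libraries (SD, n = 4) and 2.12 ± 4.02 CPM in WT central libraries (n = 4; edgeR adjusted p = 0.651). Cd84 was next, at 112 ± 28.6 CPM in Gfra2-/- endosteal libraries (SD, n = 4) and 137 ± 60.7 CPM in Gfra2-/- central libraries (n = 3; edgeR log2 fold change -0.30 ± 0.37 SE, adjusted p = 0.999). Of 24 other HSC surface genes, 20 to 22 were tested and 0 passed an FDR of 0.1 by edgeR. Between Gfra2-/- and WT central libraries 2 of 22 had higher and 2 had lower means with an unadjusted p under 0.05, beside 8.73% of all genes, and in endosteal BM 1 of 20 was higher and 2 lower, beside 6.69%. Between endosteal and central libraries 1 of 21 was lower in WT, beside 7.89%, and 1 of 22 in Gfra2-/-, beside 4.79%, and 0 were higher. Eng, which encodes the TGF-β co-receptor endoglin, was at 383 ± 104 CPM in Gfra2-/- central libraries (SD, n = 3) and 144 ± 53.8 CPM in WT central libraries (n = 4; edgeR log2 fold change 1.38 ± 0.39 SE, adjusted p = 0.318). Alcam, an adhesion molecule, was at 26.2 ± 11.4 CPM in Gfra2-/- endosteal libraries (SD, n = 4) and 92.9 ± 18.8 CPM in Gfra2-/- central libraries (n = 3; edgeR log2 fold change -1.83 ± 0.52 SE, adjusted p = 0.896).

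Of 14 progenitor surface genes, 5 to 7 were tested and 0 passed by edgeR, with 1 of 7 lower at an unadjusted p under 0.05 in Gfra2-/- endosteal than central libraries, beside 4.79% of all genes, and 1 of 5 lower in Gfra2-/- than WT endosteal libraries, beside 6.69%. These were Fcgr2b, an Fc receptor gene, with 0.0169 ± 0.0338 CPM in Gfra2-/- endosteal libraries (SD, n = 4) and 16.5 ± 21.5 CPM in Gfra2-/- central libraries (n = 3; edgeR adjusted p = 0.805), and Csf2rb, the common β chain of cytokine receptors, at 9.46 ± 4.19 CPM in Gfra2-/- endosteal libraries (SD, n = 4) and 45.2 ± 26.0 CPM in WT endosteal libraries (n = 4; edgeR log2 fold change -2.25 ± 0.72 SE, adjusted p = 0.728). Of 9 genes for the antigens of the lineage depletion, 1 or 2 were tested and 0 had an unadjusted p under 0.05. Ptprc, the gene of CD45, of which B220 is an isoform, was present in every library and at 417 ± 94.1 CPM in Gfra2-/- endosteal libraries (SD, n = 4) and 349 ± 51.1 CPM in WT endosteal libraries (n = 4; edgeR log2 fold change 0.27 ± 0.23 SE, adjusted p = 0.867). In the other 4 lists the genes named with a test are the 2 with the smallest p.

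The marker lists of other cells were read in the same 4 comparisons. None of the Ly6 family, HSC, endothelial, stromal and osteoblastic, neutrophil and monocyte, erythroid, megakaryocytic, B cell and T cell genes passed an FDR of 0.1 by edgeR. Over all genes the share was at most 0.051%. At an unadjusted p under 0.05, 3 of 5 erythroid genes tested were higher in Gfra2-/- than WT endosteal libraries, beside 6.69% of all genes. In Gfra2-/- libraries 2 of 5 were higher in endosteal than central BM, beside 4.79%. Where Gfra2-/- endosteal libraries were not compared, 2 of the 8 erythroid genes were tested, so others passed the low-count filter only with that group. These shares therefore do not describe the group as a whole. Hbb-bs read 4.13, 2.27, 0.231 and 329 CPM in Gfra2-/- endosteal A to D, and 0.909 to 3.06 CPM in WT endosteal libraries. Car1 was 118 CPM in Gfra2-/- endosteal B and at most 0.438 CPM in every other library. Of the endothelial genes, 2 of 4 were lower in WT endosteal than central libraries, beside 7.89%. Ly6e was at 844 ± 83.3 CPM in Gfra2-/- endosteal libraries (SD, n = 4) and 1291 ± 178 CPM in WT endosteal libraries (n = 4; edgeR log2 fold change -0.61 ± 0.18 SE, adjusted p = 0.646), in the family of Ly6a. Mllt3, an HSC gene, was at 245 ± 32.9 CPM in Gfra2-/- endosteal libraries (SD, n = 4) and 486 ± 17.5 CPM in Gfra2-/- central libraries (n = 3; edgeR log2 fold change -0.99 ± 0.21 SE, adjusted p = 0.805). In that comparison 1 of the 8 HSC genes, Mllt3, had an unadjusted p under 0.05, beside 4.79% of all genes, and 6 were lower and 2 higher. Of the 9 surface genes, Procr, Ly6a, Cd48, Tek and Esam had negative estimates there, and Slamf1, Flt3, Cd34 and Kit positive ones. Ly6e and Mllt3 were chosen after their values were seen.

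The genes whose levels followed each of the 9 most closely over the 15 libraries were found by Pearson's r of log2(CPM + 1) among 11707 genes with a mean of at least 5 CPM. Libraries share depth and makeup, so these correlations are descriptions only. For Cd34 they were Spry1 (r = 0.93, rho = 0.92) and Tuft1 (r = 0.85, rho = 0.88). For Flt3 they were Spg11 (r = 0.88, rho = 0.85) and Gm43362 (r = 0.85, rho = 0.90), and for Ly6a Tor1aip1 (r = 0.87, rho = 0.84) and Zkscan8 (r = 0.86, rho = 0.89). Kit was followed by Tcaf1 (r = 0.87, rho = 0.89) and Aaed1 (r = 0.82, rho = 0.79), and Esam by Myo1f (r = 0.86, rho = 0.86) and Chid1 (r = 0.82, rho = 0.72). The nearest to Tek were Plcb2 (r = 0.84, rho = 0.61) and Cdpf1 (r = 0.84, rho = 0.58), with a rho well below r. Slamf1 had Ticrr (r = 0.83, rho = 0.77) and Elmod2 (r = 0.82, rho = 0.80), Procr had Gabarapl1 (r = 0.83, rho = 0.86) and Nop53 (r = 0.82, rho = 0.85), and Cd48, the weakest, had Fto (r = 0.79, rho = 0.79) and Rusc1 (r = 0.78, rho = 0.82). None of the 9 genes was among the 2 nearest of another.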

How the data were processed

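Pools of 30 sorted cells were profiled by Smart-seq2 and single-end sequencing. Per the study's methods, reads were aligned to GRCm38 (mm10) with GSNAP, keeping reads with 1 position, and assigned to genes with HTSeq (0.5.3p3) without regard to strand. The authors deposited raw counts per gene, not normalized. Columns carry library codes that no label names, and their groups were taken from the library lists in the study's supplementary data. Of 16 samples in the labels, 15 libraries were used, since 1 column is in neither list. The 5 HTSeq summary lines (54.6 to 80.3% of each column) and 92 spike-ins were left out of library totals.

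Gene IDs (45143 of 46078) were named from GENCODE M21. Pairs of groups were fitted with edgeR 4.0.16 (R 4.3.3; filterByExpr, TMM, quasi-likelihood test, Benjamini-Hochberg FDR of 0.1, the level used in the study), and single genes were tested by two-sided exact permutation of log2(CPM + 1), with a pseudocount of 1, in scipy 1.17.1. Scripts were tested on simulated data. There the edgeR fits recovered 0 to 1.11% of genes with a true absolute log2 fold change of 1. At 3 they recovered 16.3 to 44.7%. A gene that did not pass is therefore not shown to be unchanged. Alternatives were DESeq2 1.42.0, other size factors, filters, thinned counts and left-out libraries. Added after the data were seen were the additive fit, the stratified permutation, the second gene length and fits without libraries with over 1000 or over 200 CPM of B cell, neutrophil or monocytic genes. All 9 genes are described, and from each of 5 lists of related surface and signalling genes the 2 with the smallest p over the 4 comparisons, and for each member the 2 genes with the highest correlation. In 1 list, 1 of the 2 genes is not reported here. The members and lists were chosen with earlier results of these data known. Depth was 826487 to 18550008 gene counts, so low genes are least precise in WT central libraries.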

Additional observations from a re-analysis of the deposited data

Results flagged for a closer look

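In 4 of 27 sets of 4 libraries (9 genes in 3 groups) 1 library lay far from the others by Dixon's test at the 95% level, where chance marks about 1 in 20. Slamf1 was 9.99 CPM in Gfra2-/- endosteal D against 66.1 to 96.0 CPM in the other 3. Flt3 was 11.1 CPM in WT central D against 0 to 0.311 CPM. Tek was 43.4 CPM in WT endosteal B against 99.8 to 115 CPM. Esam was 302 CPM in WT endosteal C against 208 to 220.1 CPM. The first 2 libraries are those with the highest B cell and neutrophil genes, and the part of those genes in the values was not tested.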

How the results depend on the processing

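None of the 9 genes passed an FDR of 0.1 in any of the 142 alternative fits of the 7 comparisons. Over all genes, edgeR called 0, 0, 6 and 0 in the 4 pairwise comparisons and 0 for the interaction, and DESeq2 called 607, 395, 730, 531 and 240. For genotype and compartment in the additive fit, edgeR called 124 and 4 genes and DESeq2 1247 and 534. Of 696 alternative estimates for 39 single-gene results, 638 kept their direction and 58 turned it, in 18 results, none of which had passed the test, and the cause was not tested. In the shallowest library, WT central C, 3 counts correspond to 4.02 CPM, so lower levels were not detectable there.

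With spike-in size factors the median over all genes, as a log2 fold change, was 1.58, -0.46, 1.75 and -0.28 in the pairwise comparisons, beside 0.03 in each with TMM, and values under that setting are relative to that median. For WT endosteal against central they were -0.19 for Kit, -0.73 for Procr and -0.31 for Cd34, for Gfra2-/- endosteal against central -0.17 for Slamf1 and -0.77 for Flt3, for Gfra2-/- against WT central -0.24 for Kit and 0.22 for Ly6a, and for Gfra2-/- against WT endosteal 0.80 for Cd34, 0.22 for Procr and 0.074 for Ly6a. For WT endosteal against central, DESeq2 gave -0.12 for Cd48 and -0.10 for Procr, and its size factors gave -0.11 and -0.12. Without the libraries over 1000 CPM of other-cell genes these were -0.022 and -0.060, and without those over 200 CPM Procr was -0.38 and Cd34 -0.040. Without the low spike-in libraries, and likewise without those over 200 CPM, Gfra2-/- endosteal against central gave -0.060 for Kit and 0.37 for Cd48. Without the low spike-in libraries, Gfra2-/- against WT central gave -0.28 for Esam, -0.29 for Slamf1 and -1.14 for Cd48, and Gfra2-/- against WT endosteal gave -0.029 for Kit and 1.01 for Slamf1, which was 0.29 without the other-cell libraries at either limit. In central BM, thinned counts gave -0.24 for Slamf1. Without WT central A and C, which fell below 1500000 gene counts, Kit was -0.024 in central BM.

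Leaving out 1 library at a time turned the direction within these ranges. In WT, endosteal against central, Cd48 ran from -0.90 to 1.44, Cd34 from -0.29 to 0.37 and Procr from -0.42 to 0.56. In Gfra2-/-, Kit ran from -0.00058 to 0.32. For Gfra2-/- against WT central, Esam ran from -0.019 to 0.75, Slamf1 from -0.29 to 0.94, Cd48 from -1.12 to 1.70 and Ly6a from -0.49 to 0.095, and in endosteal BM Slamf1 ran from -0.37 to 0.66 and Cd34 from -0.48 to 0.34. Filters of at least 10 counts in every library and thinned counts gave no value for Flt3 or Cd48 where these were filtered out. No paired analysis was possible because the libraries could be tied to a group but not to a replicate number, and no source used here says that libraries with neighbouring codes share an animal, a litter or a day.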
